A study of Mus musculus with 48 samples.

Results

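Whole spleens were set against whole lymph nodes of the same mouse strain, none of which had received tumour cells. The 16 libraries, 8 spleens and 8 lymph nodes, were taken from the 48 bulk RNA-seq libraries of the series by organ and column name alone, so no measured value chose them. The mice carried the QPCTL-KO C57/Bl6JR background and were 10 to 15 weeks old. Each organ was sampled from 4 homozygous QPCTL knockout mice and 4 wild-type littermates. The table's columns name the organ and a running number but no genotype, so both genotypes stand together on each side. The lymph node columns are named with a number only, and columns 1 to 8 of 20 were taken as those of mice without tumour. Nothing in the sources used here says which node was dissected, or ties a column to a mouse. Sex-linked rows had the same pattern in spleen and lymph node at 8 of 8 column numbers, and in each organ 3 columns held more Xist than Y-linked counts, so both sexes stand on each side. The tests have no term for sex or column number and treat the libraries as independent, and their p-values measure the spread between these libraries.

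Spleen and lymph node are both secondary lymphoid organs, in which B cells are gathered in follicles and T cells in the zones around them. The spleen filters blood: its red pulp macrophages take up aged red cells and return their iron, and in mice it also makes red cells, granulocytes and platelets. The lymph node filters lymph, receives lymphocytes through high endothelial venules and dendritic cells through afferent lymphatics, and lies embedded in fat. In bulk RNA, more cells of a type and more RNA per cell cannot be told apart, and this applies to every difference given here.

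The deposited counts summed to 219229 to 626316 per spleen library and 193860 to 557811 per lymph node library. In a principal component analysis of the 1000 most variable rows, the first component took 65.9% of the variance and separated the organs. Its scores ran from 18.19 to 41.15 in 7 spleens and from -31.99 to -17.51 in the lymph nodes, while spleen column 8 lay between them at -1.98. Spleen column 6 stood apart on the second component (12.9% of the variance), at -38.76. Most results that rest on spleen columns 5, 6 or 8, or on lymph node columns 2 and 7, are given with and without them.

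Many of the counts lay on the strand opposite a known transcript. In 230 pairs of a coding gene and an antisense gene that share exonic bases, the antisense row held more counts per kilobase than the coding row in 229. Coding rows of these pairs held 5.02% to 9.89% of the counts of their antisense rows in spleens (median 7.74%) and 4.39% to 5.69% in lymph nodes (median 4.90%; exact two-sided permutation p = 0.000466). Rows with an opposite-strand exon overlap of at least 50 bases made up 47 of the 50 most abundant tested rows. The library kit keeps strand, and the strand setting used in counting is not given in the sources used here. Reads of a row and of the gene opposite it cannot be told apart, so each row with such an overlap is named with the gene on the other strand.

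Of 2793 rows with enough counts, 1472 (52.7%) differed between spleen and lymph node at an adjusted p below 0.05 in edgeR's quasi-likelihood test. Among them 778 rows (27.9%) were higher in spleen and 694 (24.8%) were lower. A change of at least 2-fold was met by 513 rows (18.4%) that were higher in spleen and 303 (10.8%) that were lower. The rows fell into classes with different centres. Of 742 rows without an opposite-strand overlap, 404 (54.4%) were higher in spleen and 114 (15.4%) lower, with a median log2 fold change of 0.85. Of 2051 rows with an overlap, 374 (18.2%) were higher and 580 (28.3%) lower, with a median of -0.12. Fitted on their own, the rows without an overlap gave 248 higher (37.1%) and 225 lower (33.6%) of 669, around a median of 0.13. Each log2 fold change given below is spleen over lymph node, and for some rows the value from the class's own fit follows it. Other rows without an overlap also shift on that scale. Fth1 goes from 2.43 to 1.73, Ighd from 2.04 to 1.36 and Mki67 from 4.26 to 3.60. Among rows lower in spleen, Fabp4 goes from -3.17 to -3.84 and Clec9a from -3.39 to -4.12.

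**Figure D1:**
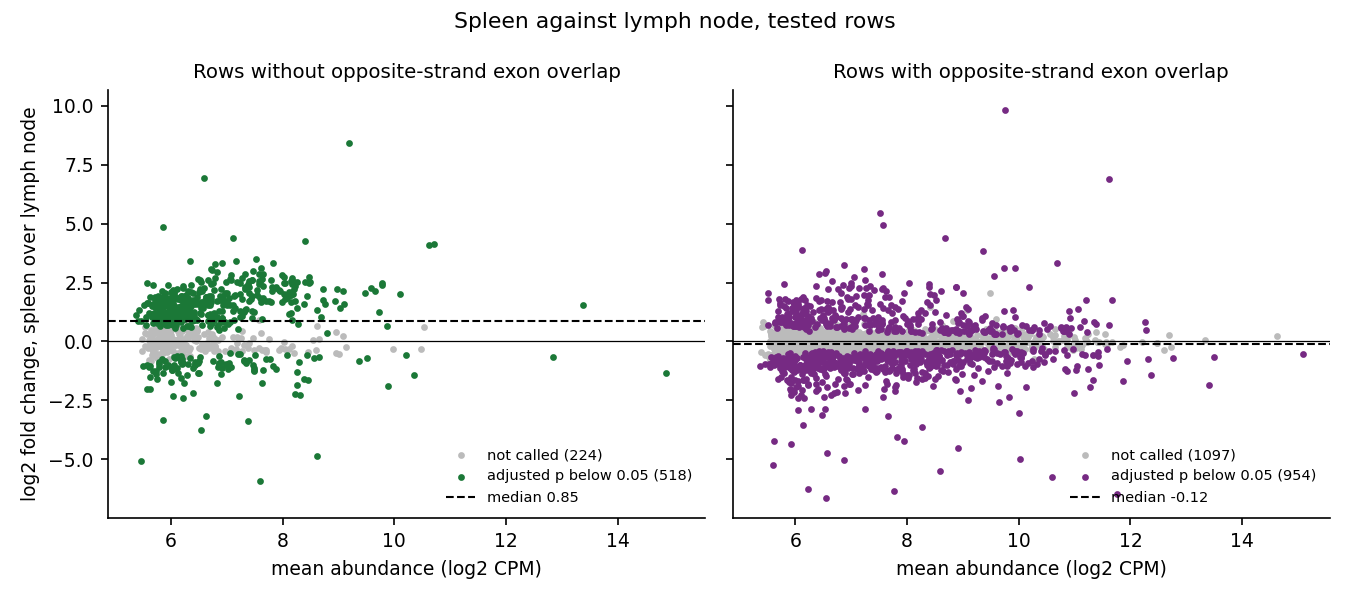
Mean abundance in log2 CPM (x) against the log2 fold change of spleen over lymph node (y) for the tested rows, in separate panels for rows without and with an opposite-strand exon overlap. Coloured points passed the test at an adjusted p below 0.05, dashed lines are the class medians of 0.85 and -0.12, and the cloud of rows without an overlap sits above that of rows with one.

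Red cell genes were higher in spleen. Hbb-bs, an adult beta globin (chromosome 7, 103826534 to 103828096, minus strand, GRCm38), had the largest log2 fold change of the tested coding rows without an overlap. Its level was 91.9, 704 and 3113 counts per 1000000 (CPM, given as lowest, median and highest) in the 8 spleens, against 0, 0 and 10.3 CPM in the 8 lymph nodes. CPM are taken on the scaled total of a library's tested rows. Every spleen lay above every lymph node, and spleen columns 5 and 6 stood highest at 3090 and 3113 CPM with column 8 lowest. The log2 fold change was 8.43 ± 0.897 (SE; edgeR adjusted p = 1.18e-06), or 7.79 among rows without an overlap and 7.44 without spleen columns 5, 6 and 8.

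Other red cell genes held too few lymph node counts to pass the filter, and their counts are summed over the 8 libraries of each organ. A fold against an organ with no count is a lower bound set by 3 counts over the organ, and covers counting error only, as do the counting intervals below. The globin Hbb-bt had 1192 counts in spleen and 0 in lymph node, at least 351-fold higher as a share of all counts. Hba-a1, an alpha globin, had 637 counts in spleen and 0 in lymph node, at least 188-fold higher, and Car2, the red cell carbonic anhydrase, had 555 and 0, at least 164-fold higher. Gata1, the master transcription factor of the lineage, had 55 counts in spleen and 0 in lymph node, and Klf1, the activator of beta globin, had 104 and 3, a ratio of 30.7 (95% counting interval 10.2 to 151). The transferrin receptor Tfrc, which brings iron into the maturing red cell, had 203 and 2 counts, a ratio of 89.8 (24.5 to 746). Slc4a1, the anion exchanger of the red cell membrane, had 752 counts in spleen and 0 in lymph node but did not pass the test (edgeR adjusted p = 0.051 without the filter), its spleen values running from 4.83 to 2725 CPM.

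The strand opposite Alas2, the enzyme that starts haem synthesis in red cells, carried more counts than Alas2 itself. The row of Apex2, which overlaps it, had 1533, 3249 and 17779 CPM in spleens, against 7.32, 28.7 and 214 CPM in lymph nodes. The ranges did not overlap, and spleen columns 5 and 6 were the highest at 17779 and 16988 CPM. The log2 fold change of the Apex2 row was 6.90 ± 0.810 (edgeR adjusted p = 3.84e-06), 5.64 without spleen columns 5, 6 and 8 and 7.63 without lymph node column 6. The row of Alas2 itself had 259 counts in spleen and 25 in lymph node. Other rows opposite a red cell gene did not pass: Gm15816, opposite the ankyrin gene Ank1, had a log2 fold change of 1.45 (edgeR adjusted p = 0.378), and Gm47079, opposite Icam4, one of 0.25 (edgeR adjusted p = 0.385). Without lymph node columns 2 and 7 the Gm15816 value was 6.21 (edgeR adjusted p = 0.00514), without lymph node column 2 alone it was 3.55 (edgeR adjusted p = 0.0359), and without spleen columns 5, 6 and 8 that of Gm47079 was -0.28 (edgeR adjusted p = 0.043).

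In a fit without the filter on low counts, 5659 of 22954 rows (24.7%) were called. In it, 20 of the 25 red cell list rows free of an overlap were higher in spleen and 0 were lower, against 17.9% higher and 4.35% lower of all 16013 such rows. The median log2 fold change of the list was 5.82, or 4.62 with the genes of no lymph node count at their bound, and that of all such rows was 0.73. Summed over the list, spleens had 188, 2000 and 16820 CPM, against 16.8, 41.3 and 61.5 CPM in lymph nodes. The spread among spleens was wide, with columns 6 and 5 highest (16820 and 10900 CPM) and column 8 lowest. Without spleen columns 5, 6 and 8 the list had 21 rows higher, and without lymph node columns 2 and 7 it had 12.

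GATA factors bind a short core motif, and the promoters of red cell genes are shown to display where its letters lie in them. The motif searched was AGATAA on either strand, which reads TTATCT on the other, with no other motif overlapping it in the search. It was found in 8 of 19 red cell list promoters of 300 bases in RefSeq's GRCm38.p6 table (42.1%: Alas2, Epb42, Epor, Hbb-bs, Icam4, Kel, Rhd and Trim10). Of all 17733 promoters in that table, 1633 (9.21%) held it. Among the iron and haem list it was in 1 of 12 promoters (8.33%) and among the adipocyte list in 2 of 13 (15.4%). Each sequence runs 5′ to 3′ on the gene's strand from 250 bases before to 50 bases after its start, and capitals mark the motif. Hbb-bs is shown for its fold change, Alas2 for haem synthesis and Epor, the erythropoietin receptor, for the signal that sustains red cell precursors. Their positions are chr7:103827879-103828178 (minus strand), chrX:150547167-150547466 (plus strand) and chr9:21963527-21963826 (minus strand).
Hbb-bs: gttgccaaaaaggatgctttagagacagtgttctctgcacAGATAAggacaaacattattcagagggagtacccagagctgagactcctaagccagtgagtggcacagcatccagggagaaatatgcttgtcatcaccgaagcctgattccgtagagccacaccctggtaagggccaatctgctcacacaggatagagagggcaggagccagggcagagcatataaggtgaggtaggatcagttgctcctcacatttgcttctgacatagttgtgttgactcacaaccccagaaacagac
Alas2: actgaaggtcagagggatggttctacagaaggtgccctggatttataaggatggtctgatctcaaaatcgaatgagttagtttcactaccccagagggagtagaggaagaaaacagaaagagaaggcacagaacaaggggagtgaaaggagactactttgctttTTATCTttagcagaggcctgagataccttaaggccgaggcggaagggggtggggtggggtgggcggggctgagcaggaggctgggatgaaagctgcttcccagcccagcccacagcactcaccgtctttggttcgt
Epor: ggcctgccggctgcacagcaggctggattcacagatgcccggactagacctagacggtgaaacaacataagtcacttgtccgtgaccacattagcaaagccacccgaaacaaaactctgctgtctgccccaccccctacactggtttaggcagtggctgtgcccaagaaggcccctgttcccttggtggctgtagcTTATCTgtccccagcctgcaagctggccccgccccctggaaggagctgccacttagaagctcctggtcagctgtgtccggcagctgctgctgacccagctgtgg
The motif stands near the far end of the Hbb-bs window, and in the Alas2 and Epor windows it reads in its reverse form closer to the start. A match is a description of the letters and not a measured binding site.

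Genes that recycle iron from red cells were higher in spleen. Slc40a1, ferroportin, the exporter of iron from macrophages, had 43.5, 97.7 and 156 CPM in spleens, against 0, 1.16 and 12.4 CPM in lymph nodes. Every spleen exceeded every lymph node, of which column 6 was the highest. The log2 fold change of Slc40a1 was 4.86 ± 0.443 (edgeR adjusted p = 9.64e-08), or 4.23 within its class and 5.45 without lymph node column 6. Hmox1, the enzyme that opens the haem ring, had 62.9, 128 and 254 CPM in spleens, against 0, 9.70 and 46.1 CPM in lymph nodes. Its ranges did not overlap, and its log2 fold change was 3.42 ± 0.424 (edgeR adjusted p = 3.30e-06), or 2.76 within its class.

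On their own rows, the genes of ferritin, the iron store, followed the same direction. Fth1, the heavy chain, had 106, 455 and 895 CPM in spleens, against 45.1, 79.5 and 144 CPM in lymph nodes. The ranges of Fth1 overlapped through the lowest spleen only, and its log2 fold change was 2.43 ± 0.333 (edgeR adjusted p = 8.63e-06). Ftl1, the light chain, had 38.7, 161 and 211 CPM in spleens, against 7.32, 20.01 and 32.95 CPM in lymph nodes, which did not overlap (log2 fold change 2.89, edgeR adjusted p = 1.64e-06). Ftl1 shares exonic bases with Gm10252 on the other strand, and the Gm10252 row had a log2 fold change of 0.21 that did not pass the test (edgeR adjusted p = 0.176). The 2 rows opposite a gene of the iron and haem list, Gm10252 among them, hold far more counts than the Ftl1 row. Their sum was 21310, 26080 and 32650 CPM in spleens, against 18330, 23020 and 28730 CPM in lymph nodes, which overlapped. Of these 2 rows 0 were higher and 0 lower without the filter, against 11.6% and 18.6% of all rows with an overlap. Blvrb, which reduces biliverdin, had 210 counts in spleen and 3 in lymph node. Slc48a1, the haem transporter, did not pass the test (log2 fold change 0.23, edgeR adjusted p = 0.432).

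Over the iron and haem list, 10 of 16 rows without an overlap were higher in spleen and 0 were lower without the filter. The shares over all such rows were 17.9% higher and 4.35% lower, and the list's median log2 fold change was 1.97. The list sum was 343, 1023 and 2314 CPM in spleens, against 190, 218 and 395 CPM in lymph nodes. These ranges overlapped through spleen column 8, and spleen columns 5 and 6, which led the red cell list, were also the 2 highest here. The count was 11 without spleen columns 5, 6 and 8 and 10 without lymph node columns 2 and 7.

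Red pulp macrophage genes were more divided. Spic, the transcription factor that mouse red pulp macrophages need, had 58 counts in spleen and 3 in lymph node, a ratio of 17.1 (5.57 to 85.3). Vcam1, an adhesion molecule of these macrophages and of stromal cells, had 24.2, 133 and 180 CPM in spleens, against 0, 9.36 and 18.9 CPM in lymph nodes, ranges that did not overlap. Vcam1 overlaps Gm43109 by 61 bases, and its log2 fold change without the filter was 3.16 (edgeR adjusted p = 2.88e-16). The row 4931431B13Rik, which lies opposite the integrin gene Itgad that marks red pulp macrophages, had 173, 351 and 624 CPM in spleens, against 0, 4.37 and 22.7 CPM in lymph nodes. Every spleen lay above every lymph node in that row, with a log2 fold change of 5.47 ± 0.423 (edgeR adjusted p = 1.96e-08).

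Other macrophage receptors depended on the scale and on the libraries compared. Marco, a scavenger receptor of marginal zone macrophages and of medullary macrophages in nodes, had 36.6, 104 and 254 CPM in spleens, against 72.0, 121 and 308 CPM in lymph nodes, a log2 fold change of -0.29 (edgeR adjusted p = 0.515). Cd163, the haemoglobin scavenger receptor, had 28.8, 76.9 and 166 CPM in spleens, against 73.2, 114 and 174 CPM in lymph nodes, a log2 fold change of -0.41 (edgeR adjusted p = 0.241). Both sets of values overlapped over most of their range. Within the class of rows without an overlap both were lower in spleen, at -0.97 for Marco (edgeR adjusted p = 0.01) and -1.06 for Cd163 (edgeR adjusted p = 0.00217). Cd163 was also lower without spleen columns 5, 6 and 8 (-0.86, edgeR adjusted p = 0.00702) and with all 48 libraries in 1 fit (-0.73, edgeR adjusted p = 0.0151). In the red pulp macrophage list, 8 of 17 rows without an overlap were higher in spleen without the filter and 2, Cd163 and Fabp4, were lower. The shares over all such rows were 17.9% and 4.35%, and the list's median log2 fold change was 1.52. Of the complement C1q and tissue macrophage list, 7 of 14 rows were higher and 0 lower, beside the same shares. Its 4 rows that passed the filter had a median log2 fold change of 1.19, or 0.05 within their class. C1qa, among the higher rows, had 0, 75.0 and 133 CPM in spleens, against 8.20, 25.1 and 33.6 CPM in lymph nodes. The ranges of C1qa overlapped through the lowest spleen, and its log2 fold change without the filter was 1.503 (edgeR adjusted p = 0.000158).

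Granulocyte genes were higher in spleen across the list. S100a9, a subunit of the neutrophil protein calprotectin, had 19.3, 192 and 1083 CPM in spleens, against 0, 3.21 and 15.4 CPM in lymph nodes. The ranges did not overlap, and the log2 fold change of S100a9 without the filter was 5.73 (edgeR adjusted p = 0.000145). Its partner S100a8 had 206 counts in spleen and 1 in lymph node, and the granule protein gene Ngp had 106 and 2. Of 16 list rows without an overlap, 15 were higher and 0 lower, against 17.9% and 4.35% of all such rows. The list's median log2 fold change was 3.44, or 2.47 with genes of no count in 1 organ at their bound. The list sum was 29.01, 380 and 2459 CPM in spleens, against 0, 11.95 and 32.95 CPM in lymph nodes, and spleen column 8 alone reached into the lymph node range. Without spleen columns 5, 6 and 8, 13 of 15 rows were higher.

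Spleen column 6 carried a strong early granulocyte signal. The row Gm11505, opposite Mpo, the myeloperoxidase of granulocyte precursors, had 35.4, 83.1 and 4850 CPM in spleens, against 0, 6.58 and 227 CPM in lymph nodes. The highest value was that of spleen column 6, and the ranges overlapped. The log2 fold change of Gm11505 was 4.38 ± 1.33 (edgeR adjusted p = 0.0122). It was 2.44 without spleen column 6, 6.18 without lymph node column 6, and 2.08 without spleen columns 5, 6 and 8, where it no longer passed (edgeR adjusted p = 0.116).

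Platelet genes had fewer counts. The platelet chemokines Pf4 and Ppbp had 28 and 53 counts in spleen and 0 each in lymph node, at least 8.25-fold and 15.6-fold higher. Itga2b, the platelet integrin subunit, did not differ by the test (49 counts in spleen and 25 in lymph node; log2 fold change 0.52, edgeR adjusted p = 0.40 without the filter). Gp1ba, a subunit of the platelet receptor for von Willebrand factor, was lower, with 29.8, 39.6 and 82.2 CPM in spleens, against 37.8, 83.3 and 151 CPM in lymph nodes. The ranges of Gp1ba overlapped (log2 fold change -0.92 ± 0.282, edgeR adjusted p = 0.0103; -1.53 within its class), and a gene on the other strand ends 2160 bases from it. Clec1b, a lectin-like receptor of platelets, had 31 counts in spleen and 66 in lymph node and was lower too (log2 fold change -1.57, edgeR adjusted p = 0.00132 without the filter). Over the megakaryocyte and platelet list, 7 of 19 rows were higher and 2, Gp1ba and Clec1b, were lower without the filter, against 17.9% and 4.35% of all such rows, with 4 higher and 2 lower without lymph node columns 2 and 7.

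Genes of dividing cells rose in spleen, unevenly between spleens. Mki67, which marks cells in cycle, had 29.01, 190 and 3263 CPM in spleens, against 20.5, 33.4 and 56.4 CPM in lymph nodes. Spleen columns 6 and 5 were highest at 3263 and 988 CPM, and the lowest spleen lay within the lymph node range. The log2 fold change of Mki67 was 4.26 ± 0.851 (edgeR adjusted p = 0.000515), 3.01 without spleen column 6 and 2.38 without spleen columns 5, 6 and 8. Of 21 cell cycle rows without an overlap, 20 were higher and 0 lower without the filter, against 17.9% and 4.35% of all such rows. Their median log2 fold change was 3.53, and 18 were higher without spleen columns 5, 6 and 8. The list sum was 121, 607 and 6710 CPM in spleens, against 73.8, 104 and 210 CPM in lymph nodes. The spleens highest in this sum were the 2 that were highest in the red cell sum, and the part of red cell and granulocyte precursors in it was not tested.

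**Figure D2:**
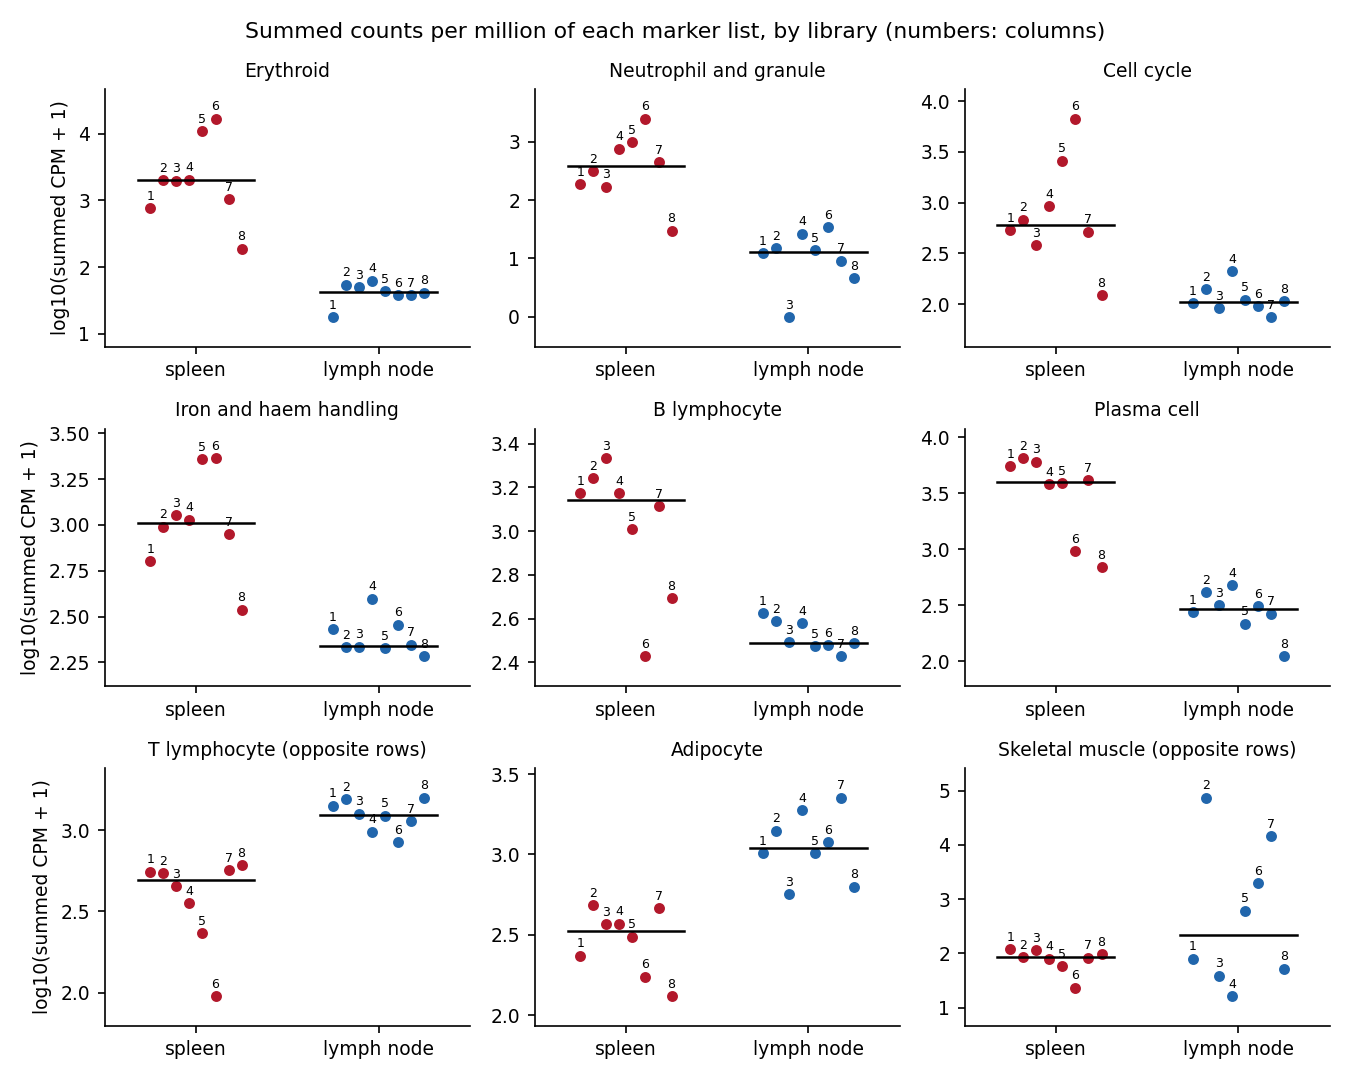
Summed CPM of 9 marker lists on a log10 scale (y, after adding 1) in each spleen and lymph node library, with column numbers above the points and bars at the medians. Spleen columns 5 and 6 lead the erythroid panel at 10900 and 16820 CPM, spleen columns 6 and 8 are the lowest spleens in the B lymphocyte panel, with column 6 in the lymph node range, and lymph node columns 2 and 7 lead the skeletal muscle panel.

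B cell genes were higher in spleen on their own rows without an overlap, but not on the rows opposite them. Ighm, the constant region of IgM heavy chain, had 483, 3243 and 5285 CPM in spleens, against 65.9, 173 and 293 CPM in lymph nodes. All spleens lay above all lymph nodes, although columns 6 and 8 were far below the other spleens. The log2 fold change of Ighm was 4.13 ± 0.436 (edgeR adjusted p = 5.83e-07), or 3.43 within its class. Ighd, the IgD constant region that naive B cells carry, had a smaller difference, with 22.2, 179 and 307 CPM in spleens, against 20.5, 45.1 and 72.8 CPM in lymph nodes. The ranges of Ighd overlapped, and its log2 fold change was 2.04 ± 0.394 (edgeR adjusted p = 0.00028).

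Components of the B cell receptor complex followed. Cd79b, its signalling chain, had 44.4, 186 and 313 CPM in spleens, against 8.24, 23.3 and 39.2 CPM in lymph nodes. No spleen overlapped a lymph node, and the log2 fold change of Cd79b was 2.93 ± 0.369 (edgeR adjusted p = 3.84e-06), or 2.25 within its class. Cd79a, the other signalling chain, had a log2 fold change of 1.82 (edgeR adjusted p = 0.000119), with overlapping ranges. Of 16 B lymphocyte rows without an overlap, 13 were higher and 0 lower without the filter, against 17.9% and 4.35% of all such rows. Their median log2 fold change was 1.87, and 14 were higher without spleen columns 5, 6 and 8. The list sum was 266, 1396 and 2155 CPM in spleens, against 266, 309 and 420 CPM in lymph nodes, and spleen column 6 was at the low end of the lymph node range. The 4 rows opposite a B lymphocyte gene hold more counts. Of these, 0 were higher and 3 lower without the filter, against 11.6% and 18.6% of all rows with an overlap. Their sum was 599, 3610 and 4771 CPM in spleens, against 2951, 3938 and 4724 CPM in lymph nodes. Of 4 own rows with an overlap, 3 were higher and 1 lower. The sum of those was 560.5, 1727 and 1872 CPM in spleens, against 1327, 1605 and 1894 CPM in lymph nodes. Both sets of sums overlapped.

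Genes of antibody secretion were also higher in spleen. Jchain, which joins IgM and IgA polymers, had 43.5, 266 and 527 CPM in spleens, against 10.98, 16.6 and 30.2 CPM in lymph nodes. Its ranges did not overlap, and its log2 fold change without the filter was 3.64 (edgeR adjusted p = 2.64e-28). Igha, the IgA constant region, had 360 counts in spleen and 3 in lymph node, a ratio of 106 (36.02 to 517). Xbp1, the transcription factor of the secretory programme, had 4.83, 44.4 and 65.4 CPM in spleens, against 0, 9.70 and 22.7 CPM in lymph nodes, with overlapping ranges and a log2 fold change of 1.86 without the filter (edgeR adjusted p = 0.000199). In the plasma cell list 12 of 17 rows without an overlap were higher and 0 lower, against 17.9% and 4.35% of all such rows. The number higher was 14 without spleen columns 5, 6 and 8 and 8 without lymph node columns 2 and 7.

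Follicular stroma gave a large difference. Coch, cochlin, a secreted protein that follicular dendritic cells make, had 55.5, 178 and 264 CPM in spleens, against 0, 0 and 5.13 CPM in lymph nodes. All 8 spleens lay above the lymph nodes, where 2 counts were found in all. The ratio of Coch was 198 (54.5 to 1641), and the row passed the test (edgeR adjusted p = 2.78e-08). Mfge8, a bridging protein for the uptake of dying cells, had 55.5, 222 and 389 CPM in spleens, against 12.7, 35.5 and 58.0 CPM in lymph nodes. Its ranges overlapped narrowly, with a log2 fold change of 2.62 ± 0.366 (edgeR adjusted p = 1.03e-05). Cr2, the complement receptor of follicular dendritic cells and B cells, had a log2 fold change of 1.92 (edgeR adjusted p = 2.50e-05). Cxcl13, the chemokine that draws B cells into follicles, had 19.3, 41.7 and 89.4 CPM in spleens, against 7.32, 13.8 and 29.6 CPM in lymph nodes, with a log2 fold change of 1.39 without the filter (edgeR adjusted p = 0.00183). Of 11 follicular dendritic cell rows without an overlap, 6 were higher and 0 lower without the filter, against 17.9% and 4.35% of all such rows.

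T cell genes gave different answers on the 2 strands. On the genes' own rows without an overlap, 3 of 16 were higher and 1 was lower without the filter, near the 17.9% and 4.35% of all such rows. Without spleen columns 5, 6 and 8 the number higher was 5, and without lymph node columns 2 and 7 it was 2. Cd4 had 82 counts in spleen and 50 in lymph node (log2 fold change 0.08, edgeR adjusted p = 0.871), and Lck, the kinase of the T cell receptor, had 102 and 57 (log2 fold change 0.20, edgeR adjusted p = 0.669). Cd27, a costimulatory receptor, was the list's own row without an overlap that passed the filter, and it was lower (log2 fold change -0.82, edgeR adjusted p = 0.0326). That call was lost without spleen column 1, 3, 4 or 5 or lymph node column 3, where the value of Cd27 lay between -0.80 and -0.70.

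The rows opposite T cell genes, which hold more counts, were all lower in spleen (4 of 4, against 28.3% of all rows with an overlap). Gm48719, opposite the CD3 chain gene Cd3e, had 38.8, 288 and 314 CPM in spleens, against 404, 613 and 692 CPM in lymph nodes. Every spleen lay below every lymph node, and the log2 fold change of Gm48719 was -1.30 ± 0.261 (edgeR adjusted p = 0.000397). The row 4930519F09Rik, opposite Themis, a regulator of T cell selection, had 5.55, 31.7 and 46.6 CPM in spleens, against 76.9, 129 and 172 CPM in lymph nodes. Its ranges did not overlap either, with a log2 fold change of -2.11 ± 0.272 (edgeR adjusted p = 4.80e-06). Pou2f1, opposite the CD3 zeta gene Cd247, had a log2 fold change of -1.56 (edgeR adjusted p = 0.000381). The sum of the 4 rows was 94.3, 499 and 609 CPM in spleens, against 844, 1248 and 1589 CPM in lymph nodes. The 4 rows stayed lower without spleen columns 5, 6 and 8 and without lymph node columns 2 and 7.

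Naive T cell genes also differed between the strands. Of their own rows without an overlap, 4 of 11 were higher in spleen and 0 lower without the filter, against 17.9% and 4.35% of all such rows. That number was 8 without spleen columns 5, 6 and 8 and 1 without lymph node columns 2 and 7. Of 5 rows opposite a member 0 were higher and 4 lower, against 11.6% and 18.6% of all rows with an overlap, and these counts were the same without those spleen or lymph node columns. Among them was Lef1os1, opposite the transcription factor gene Lef1 (log2 fold change -1.22, edgeR adjusted p = 0.00121). Ccr7, the receptor that guides lymphocytes to T zones, had 103 counts in spleen and 28 in lymph node on its own row, a log2 fold change of 1.19 without the filter (edgeR adjusted p = 0.0152). In that fit the median log2 fold change was 0.74 over the list's own rows without an overlap and 0.73 over all such rows.

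Transcription factors of the splenic mesenchyme had low counts in spleen, and Tlx1, Nkx2-3 and Tcf21 had 0 counts in every lymph node library. Tlx1, a homeobox factor that mice need to form a spleen, had 21 counts in spleen, at least 6.19-fold higher. Nkx2-3, which shapes splenic vessels in mice, had 33 counts in spleen, at least 9.73-fold higher. Tcf21, another factor of spleen development, had 44 counts in spleen, at least 12.97-fold higher. Of the 9 list rows without an overlap in the test without the filter, 5 were higher and 0 lower, against 17.9% and 4.35% of all such rows. Of 2 own rows with an overlap, 0 were higher and 1 lower. The 2 rows opposite a member also had 0 higher and 1 lower, and of all rows with an overlap 11.6% were higher and 18.6% lower.

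Markers of the lymph node's own vessels checked the other label. Glycam1, a mucin-like glycoprotein made by high endothelial venules, had 0 counts in spleen and 181 in lymph node, at least 68.2-fold lower in spleen (edgeR adjusted p = 0.0288 without the filter). Its lymph node values ran from 0 to 204 CPM, and its value without lymph node columns 2 and 7 is not given here. The summed venule list rows without an overlap had 40.4, 54.4 and 111 CPM in spleens, against 46.1, 97.5 and 283 CPM in lymph nodes. These ranges overlapped, and lymph node columns 2, 8 and 7 were highest at 283, 231 and 213 CPM. Lyve1, the hyaluronan receptor of lymphatic vessels, had 1 count in spleen and 34 in lymph node, a ratio of 38.4 towards lymph node (6.45 to 1563). Cd209b is a lectin of sinus and marginal zone macrophages and not of vessels, so it does not check the label. It had 0, 4.57 and 11.2 CPM in spleens, against 7.32, 29.2 and 46.1 CPM in lymph nodes, with a log2 fold change of -2.50 without the filter (edgeR adjusted p = 5.08e-06). In the list of these macrophages, 1 of 9 rows without an overlap was higher and 1 lower without the filter, against 17.9% and 4.35% of all such rows. The number lower was 2 without spleen columns 5, 6 and 8 and 3 without lymph node columns 2 and 7, with 1 higher in each. Of 2 rows with an overlap 0 were higher and 1 lower, against 11.6% and 18.6% of all rows with an overlap. Ackr4, a scavenging receptor for homing chemokines on sinus lymphatic cells, overlaps Acad11 and had 46.2, 92.6 and 116 CPM in spleens, against 159, 340 and 461 CPM in lymph nodes. Every spleen lay below every lymph node for Ackr4 (log2 fold change -1.92 ± 0.218, edgeR adjusted p = 1.46e-06). Most rows of the vessel lists did not pass the test: of 11 high endothelial venule rows 0 were higher and 3 lower, and of 15 lymphatic endothelium rows 1 was higher and 2 were lower without the filter, against 17.9% higher and 4.35% lower of all such rows. Without spleen columns 5, 6 and 8, 1 venule row was higher and 2 were lower. Without lymph node columns 2 and 7, 0 venule rows were higher and 2 lower, and 0 lymphatic rows were higher and 2 lower.

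Fat cell genes were lower in spleen. Fabp4, the fatty acid carrier of adipocytes, had 5.55, 12.4 and 39.6 CPM in spleens, against 64.2, 163 and 297 CPM in lymph nodes. No spleen reached the lowest lymph node, and the log2 fold change of Fabp4 was -3.17 ± 0.405 (edgeR adjusted p = 4.31e-06). Scd1, which desaturates fatty acids, had 16.6, 133 and 201 CPM in spleens, against 242, 388 and 1131 CPM in lymph nodes, a log2 fold change of -1.84 ± 0.357 (edgeR adjusted p = 0.000297). The row 4732471J01Rik, opposite Lipe, the hormone-sensitive lipase, had 117, 234 and 300 CPM in spleens, against 1002, 1855 and 3082 CPM in lymph nodes. It separated the organs with a log2 fold change of -3.03 ± 0.268 (edgeR adjusted p = 7.67e-08).

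Most of the adipocyte list was lower in spleen. Without the filter 16 of 20 rows without an overlap were lower in spleen and 0 were higher, against 4.35% lower of all such rows, with a median log2 fold change of -2.75. Plin1, which coats lipid droplets, had 1 count in spleen and 39 in lymph node, and the hormone gene Adipoq had 2 and 21. Ucp1, the uncoupling protein of brown fat, had 0 counts in spleen and 20 in lymph node. The list sum was 131, 336 and 482 CPM in spleens, against 563, 1107 and 2254 CPM in lymph nodes, ranges that did not overlap. The number of lower rows was 15 without spleen columns 5, 6 and 8 and 16 without lymph node columns 2 and 7. How much fat was dissected with each organ is not stated, and its part in these values was not tested.

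Some rows with an overlap had larger differences, and those named here were chosen after their values were seen. Gm16537, opposite the glycerol phosphate dehydrogenase gene Gpd1, had 18.6, 59.2 and 89.9 CPM in spleens, against 804, 2383 and 6824 CPM in lymph nodes (log2 fold change -5.76 ± 0.499, edgeR adjusted p = 6.78e-08). Gm45470, opposite the beta-adrenergic receptor gene Adrb3 of adipocytes, had 0, 0 and 20.2 CPM in spleens, against 58.6, 378 and 748 CPM in lymph nodes (log2 fold change -6.32 ± 0.656, edgeR adjusted p = 5.11e-07). Gm10602, opposite the phosphoinositide phosphatase gene Inppl1, had 31.6, 59.4 and 104 CPM in spleens, against 1289, 2047 and 2717 CPM in lymph nodes (log2 fold change -4.86 in the fit of rows with an overlap, edgeR adjusted p = 7.39e-12). In each of these rows every spleen lay below every lymph node, and without spleen column 2 the value of Gm45470 was -7.36. The largest difference in the other direction was Gm14866, opposite Gdpd2, with 1093, 1628 and 2455 CPM in spleens, against 0, 0 and 3.78 CPM in lymph nodes. Its ratio was 1133 (388 to 5498), it rested on 3845 counts in spleen and 3 in lymph node, and it passed the test (edgeR adjusted p = 6.99e-14).

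**Figure D3:**
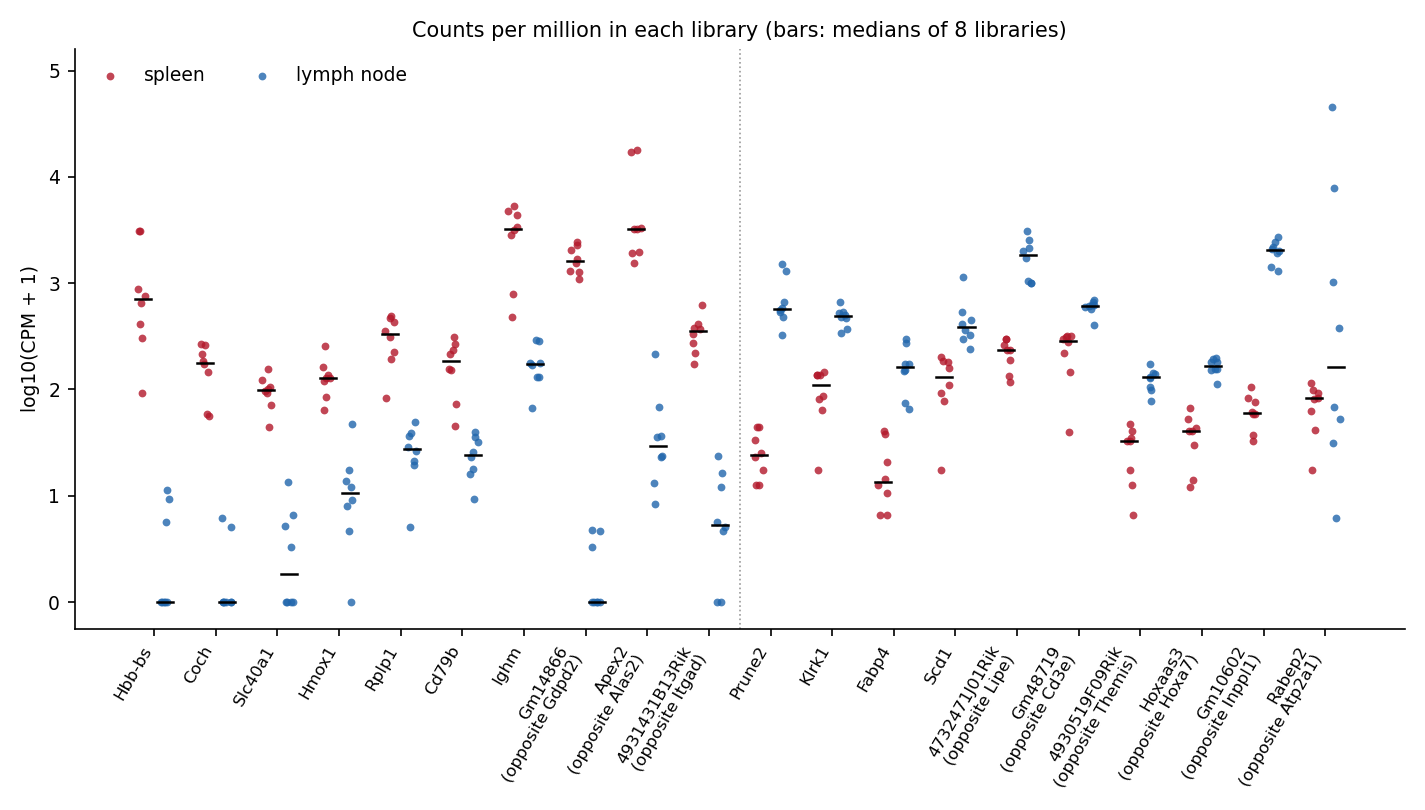
CPM in each library on a log10 scale (y, after adding 1) for 10 rows higher in spleen, left of the dotted line, and 10 rows lower in spleen, with bars at the medians of 8 libraries and the opposite gene named where a row overlaps one. The organs separate in each row but Rabep2, where lymph node values spread from 5.13 to 44972 CPM around the spleen values.

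Skeletal muscle transcripts marked single lymph nodes. Rabep2, opposite the muscle calcium pump gene Atp2a1, had 16.6, 81.7 and 113 CPM in spleens, against 5.13, 224 and 44972 CPM in lymph nodes. The ranges overlapped, and the difference rested on lymph node columns 2 and 7 (log2 fold change -6.49 ± 1.65, edgeR adjusted p = 0.00423). Its log2 fold change was -4.24 without lymph node column 2 and -1.91 without columns 2 and 7, and with limma-voom the Rabep2 row did not pass (limma adjusted p = 0.211). The row A930016O22Rik, opposite the muscle creatine kinase gene Ckm, had 4 counts in spleen and 10791 in lymph node, with 21674 CPM in lymph node column 2 and 5045 CPM in column 7. Myh4, a fast myosin, had 0 counts in spleen, and 910 and 98.4 CPM in the same lymph nodes. Of 9 rows opposite a muscle gene 7 were lower in spleen without the filter, against 18.6% of all rows with an overlap. Without those 2 lymph nodes 3 of 8 were lower. The sum of these rows was 22.2, 83.2 and 120 CPM in spleens, against 15.4, 344 and 73750 CPM in lymph nodes, so the groups overlapped.

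Some Hox genes, which set position along the body axis, were lower in spleen. Hoxc9 had 0 counts in spleen and 35 in lymph node, where each library had 10.3 CPM or more, at least 13.2-fold lower in spleen. Hoxaas3, opposite Hoxa7, had 11.1, 39.7 and 66.3 CPM in spleens, against 111, 167 and 198 CPM in lymph nodes. Those ranges did not overlap, and the log2 fold change of Hoxaas3 was -2.12 ± 0.260 (edgeR adjusted p = 3.00e-06). Of 16 Hox rows without an overlap, 6 were lower and 0 higher without the filter, against 4.35% and 17.9% of all such rows (median log2 fold change -1.79, or -1.18 with genes at their bound). Of 8 rows opposite a Hox gene, 6 were lower and 0 higher, against 18.6% lower of all rows with an overlap. Of 7 own Hox rows with an overlap, 0 were higher or lower without the filter. Hoxb3, opposite Hoxb3os, was the only own Hox row with enough counts for the filtered test, and it was higher in spleen, with 27.7, 74.4 and 106 CPM in spleens, against 16.5, 37.1 and 86.1 CPM in lymph nodes (log2 fold change 0.73, edgeR adjusted p = 0.0438). That call was lost without the filter (0.49, edgeR adjusted p = 0.24), and without spleen column 1, 2, 3, 7 or 8 or lymph node column 1, 3, 4, 5, 6 or 8, where the value of Hoxb3 lay between 0.52 and 0.75.

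Among other coding rows without an exon overlap, Clec9a and Klrk1 were lower in spleen. Clec9a, the receptor by which cross-presenting dendritic cells sense dead cells, had 11.1, 27.4 and 46.5 CPM in spleens, against 225, 284 and 393 CPM in lymph nodes. Every spleen was below every lymph node (log2 fold change -3.39 ± 0.249, edgeR adjusted p = 1.23e-08). Clec1a on the other strand ends 9 bases away, and Xcr1, the chemokine receptor of the same dendritic cells, did not differ by the test (log2 fold change -0.61, edgeR adjusted p = 0.222 without the filter). In the list of these dendritic cells 5 of 12 rows were higher in spleen and 1, Clec9a, was lower without the filter, against 17.9% and 4.35% of all such rows. Wdfy4, which mice need for cross-presentation, was among those higher, with 288 counts in spleen and 34 in lymph node (log2 fold change 2.48, edgeR adjusted p = 1.65e-11 without the filter). Klrk1, the activating receptor NKG2D of cytotoxic lymphocytes, had 16.6, 111 and 144 CPM in spleens, against 340, 489 and 664 CPM in lymph nodes (log2 fold change -2.25 ± 0.265, edgeR adjusted p = 1.98e-06). The groups of Klrk1 did not overlap. In the NK and cytotoxic lymphocyte list 2 of 16 rows without an overlap were higher in spleen and 0 were lower, beside the same shares over all such rows.

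Prune2 and Tmem179 had the largest negative changes of the named coding rows. Prune2 had 11.5, 23.2 and 43.5 CPM in spleens, against 327, 575 and 1528 CPM in lymph nodes (log2 fold change -4.84 ± 0.367, edgeR adjusted p = 1.67e-08). Tmem179 had 0, 2.77 and 28.8 CPM in spleens, against 118, 288 and 1025 CPM in lymph nodes (log2 fold change -5.90 ± 0.638, edgeR adjusted p = 8.06e-07). Both rows separated the organs, Tmem179 had a log2 fold change of -6.97 without spleen column 7, and a gene on the other strand ends 262 bases from it. Pter, 2 bases from C1ql3, and Rce1, a protease of prenylated proteins 839 bases from Pcx, had log2 fold changes of -3.75 and -3.35. Haspin, a histone kinase of mitosis that lies within the span of the integrin gene Itgae, had a log2 fold change of -2.41. Pias3, Extl1, Vasn, Stox2, Slc31a2 and Cmc1 ranged in log2 fold change from -1.99 to -1.33.

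**Figure D4:**
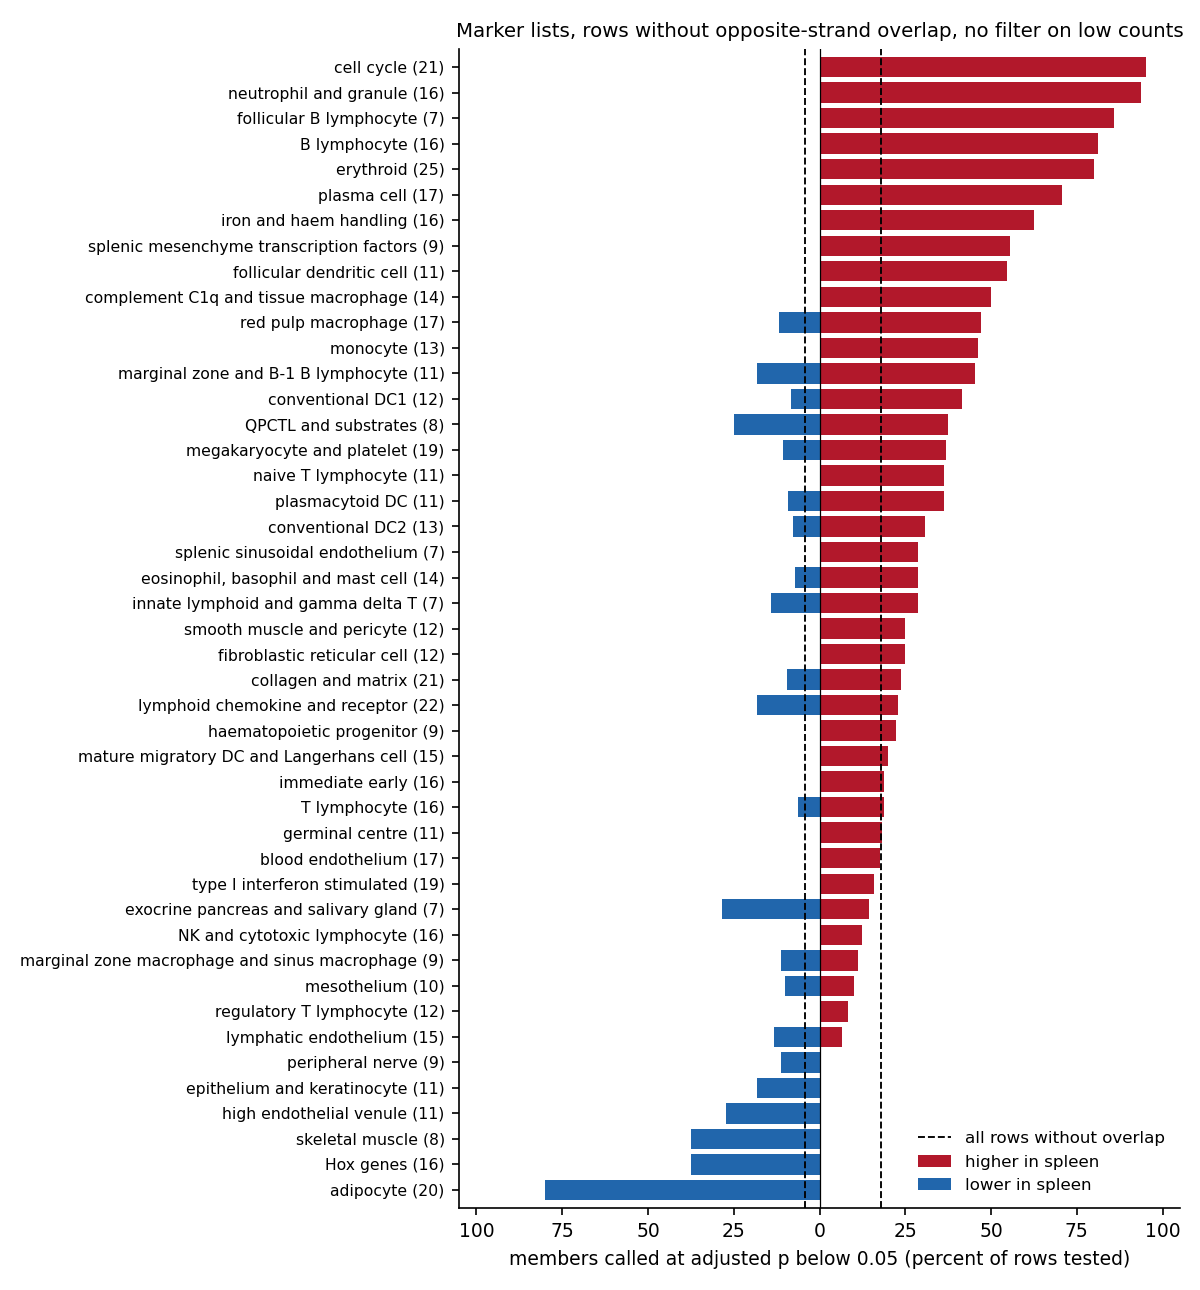
Percent of each marker list's rows without an opposite-strand overlap that were called higher (right) or lower (left) in spleen at an adjusted p below 0.05 without a filter on low counts, with the number of rows in brackets. Dashed lines mark 17.9% and 4.35%, the shares over all such rows, and the cell cycle and neutrophil lists lie farthest to the right while the adipocyte list lies farthest to the left.

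Ribosomal protein rows made up much of the named higher group. Of the 15 coding rows with the largest positive changes, 10 encode ribosomal proteins, and Cd79b, Slc40a1, Hmox1, Hbb-bs and Coch are the others. Rplp1 had 82.2, 333 and 488 CPM in spleens, against 4.12, 26.7 and 48.8 CPM in lymph nodes (log2 fold change 3.50 ± 0.367, edgeR adjusted p = 5.59e-07), or 2.81 within its class. As a share of all counts, ribosomal protein rows were 2.35% ± 0.886 in spleens and 0.554% ± 0.136 in lymph nodes (SD, n = 8 each; exact permutation, adjusted p = 0.000544). The lowest spleen, column 8 at 0.793%, lay under the highest lymph node, column 1 at 0.856%. Ribosomal protein genes have many near-identical pseudogene copies, so how reads were divided among them is uncertain. The share was highest in spleen column 3 (3.41%), which also had the highest coding over antisense ratio (9.89%). Spleen column 8 had the lowest ratio of the spleens (5.02%), and lymph node column 1 the highest of the lymph nodes (5.69%). Spleen column 6 had a low share (1.48%) at a ratio of 7.80%. The part of this ratio in the ribosomal shares was not tested.

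The class shares were each compared by an exact two-sided permutation test over all 12870 assignments of the 16 libraries, adjusted over 7 classes. The smallest p these can give is 0.000155. Immunoglobulin rows took 0.690% ± 0.378 of the counts in spleens and 0.0981% ± 0.0217 in lymph nodes (SD, n = 8 each; exact permutation, adjusted p = 0.000363). Haemoglobin rows took 0.181% ± 0.186 in spleens and 0.000428% ± 0.000408 in lymph nodes (SD, n = 8 each; exact permutation, adjusted p = 0.000363). In both classes every spleen lay above every lymph node. T cell receptor rows took 0.00561% ± 0.00337 in spleens and 0.00617% ± 0.000971 in lymph nodes, and that difference did not pass the test (SD, n = 8 each; exact permutation, adjusted p = 0.661). Their spleen values ran from 0% in column 6 to 0.0101%, so this comparison rests on few counts.

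Mitochondrial rows, 37 in all and dominated by 1 row, took a lower share in spleen. They took 2.35% ± 0.643 of the counts in spleens and 4.94% ± 1.27 in lymph nodes (SD, n = 8 each; exact permutation, adjusted p = 0.000363). The groups did not overlap, from 1.02% to 2.88% in spleens and from 3.05% to 6.65% in lymph nodes. Most of the class's counts in each library were of mt-Nd6, the complex I subunit encoded on the mitochondrial light strand. The comparison of this class therefore rests mostly on that row. The mt-Nd6 row had 7808, 18493 and 22089 CPM in spleens, against 25258, 42270 and 59259 CPM in lymph nodes (log2 fold change -1.33, edgeR adjusted p = 4.56e-05). Its strand is opposite that of 12 mitochondrial coding genes. Antisense rows took 16.6% ± 1.98 in spleens and 21.1% ± 0.987 in lymph nodes (SD, n = 8 each; exact permutation, adjusted p = 0.000653).

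**Figure D5:**
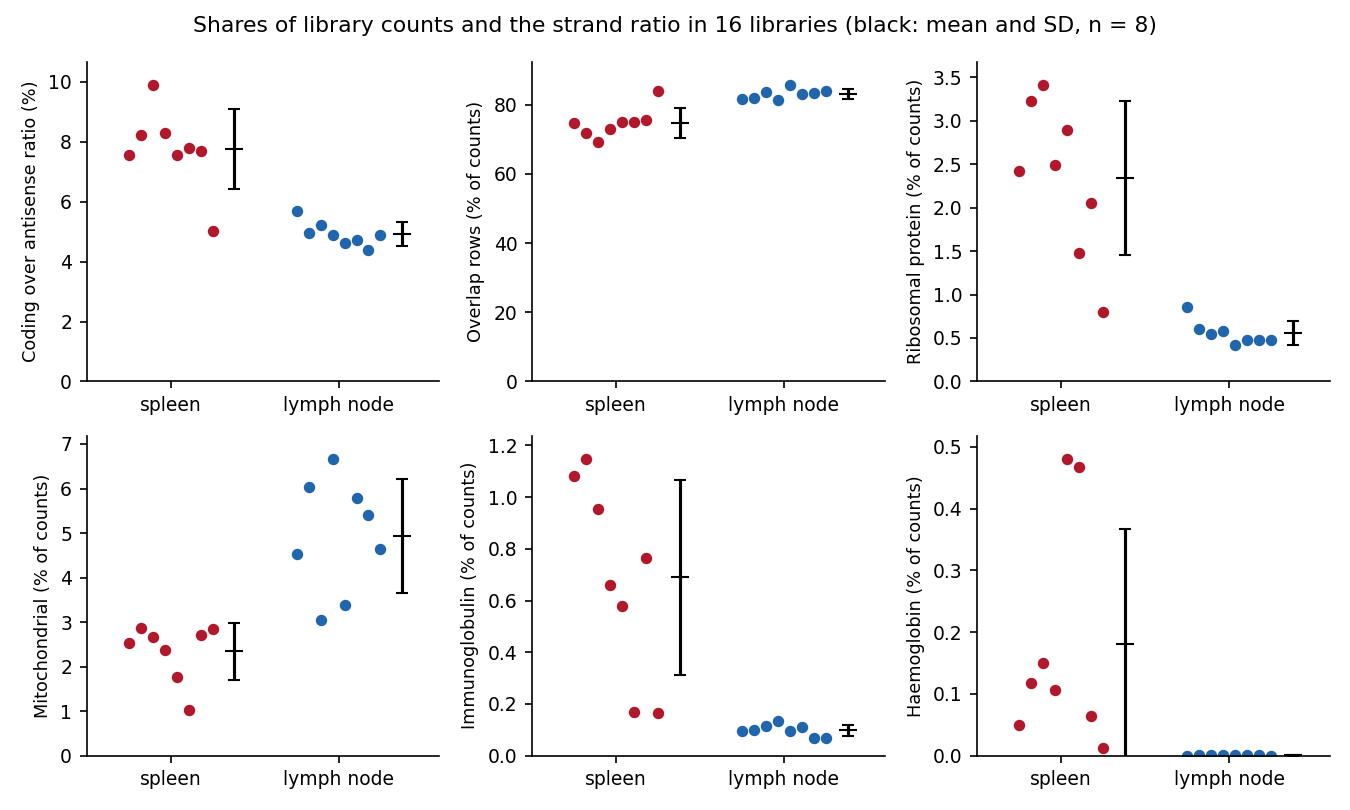
The coding over antisense ratio (%) and 5 classes of rows as percent of all counts (y) in each spleen and lymph node library, in column order, with the mean and SD of 8 libraries in black. Ribosomal protein, immunoglobulin and haemoglobin shares sit higher in spleens and mitochondrial shares lower, and spleen column 8 lies at the lymph node level in the ratio and in the share of overlap rows. The SD bar of haemoglobin is drawn down to 0.

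The choice of lymph node columns bears on the size of these differences. With columns 9 to 20, taken as those of tumour-bearing mice, in place of columns 1 to 8, 1365 rows were called, and of 1459 rows called before and tested again 814 were called again, 797 of them in the same direction. Hbb-bs and Slc40a1 kept their direction, with log2 fold changes of 7.26 and 3.12. Some other rows of the macrophage lists changed sign: Cd163 was at 0.32 (edgeR adjusted p = 0.376), Apoe, a lipid carrier, at -0.50 (edgeR adjusted p = 0.00933) and the complement gene C3 at -0.76 (edgeR adjusted p = 0.0048). With columns 1 to 8 the log2 fold change of Apoe was 0.38 (edgeR adjusted p = 0.0938) and that of C3 0.73 (edgeR adjusted p = 0.0322). Within their class, Apoe was at -0.31 (edgeR adjusted p = 0.178) and C3 at 0.05 (edgeR adjusted p = 0.865). The C3 call was also lost with DESeq2, limma-voom, no filter on low counts or all 48 libraries in 1 fit. It was lost as well without spleen column 2, 3 or 4 or lymph node column 5, 6, 7 or 8. Gp1ba did not pass with columns 9 to 20 (-0.25, edgeR adjusted p = 0.405). Those of B cells, ferritin and ribosomal proteins were smaller, at 2.54 for Ighm, 1.22 for Cd79b, 0.86 for Ftl1 and 0.99 for Rplp1, and Ighd did not pass the test (0.08, edgeR adjusted p = 0.86). Rows lower in spleen were at -4.18 for Fabp4, -2.98 for Clec9a, -1.73 for 4930519F09Rik and -1.61 for Hoxaas3, and Marco was lower as well (-1.42, edgeR adjusted p = 0.00619). With all 20 lymph node columns, 1685 rows were called, 1086 of them called before and in the same direction.

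The strain's targeted gene was close to its limit of counting. Qpctl, which encodes the Golgi glutaminyl cyclase, had 76 counts in spleen and 41 in lymph node on its own row, and did not differ by the test (log2 fold change 0.42, edgeR adjusted p = 0.406 without the filter). The row of Fbxo46, which overlaps Qpctl by 471 bases, had 61.1, 127 and 190 CPM in spleens, against 49.4, 123 and 190 CPM in lymph nodes. The organs covered the same range (log2 fold change 0.03, edgeR adjusted p = 0.944). The secreted relative Qpct had 2 counts in spleen and 0 in lymph node. Cd47, a substrate of the enzyme, had 14.5, 60.8 and 216 CPM in spleens, against 8.24, 11.3 and 25.6 CPM in lymph nodes, with overlapping ranges and a log2 fold change of 2.21 without the filter (edgeR adjusted p = 8.17e-08). Sirpa, the receptor of CD47 on macrophages, had 14.5, 99.7 and 154 CPM in spleens, against 7.32, 24.02 and 44.8 CPM in lymph nodes, also overlapping, with a log2 fold change of 1.83 (edgeR adjusted p = 9.97e-07). Of 8 rows of the enzyme, its substrates and their partners without an overlap, 3 were higher and 2 lower without the filter, against 17.9% and 4.35% of all such rows. The third higher row was the chemokine Cxcl12 (234 counts in spleen and 48 in lymph node; log2 fold change 1.64, edgeR adjusted p = 1.15e-05). The lower rows were the chemokines Cx3cl1, with 2 counts in spleen and 10 in lymph node (edgeR adjusted p = 0.0362), and Ccl8, with 1 and 8 (edgeR adjusted p = 0.0245). The number lower was 0 without spleen columns 5, 6 and 8 and 1 without lymph node columns 2 and 7. As the columns carry no genotype, loss of Qpctl could not be checked against the labels.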

How the data were processed

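Whole spleens and lymph nodes were profiled by paired-end 50 bp RNA-seq with the TruSeq Stranded mRNA kit, at about 18000000 reads per sample on average, per the labels' protocols. The authors deposited 1 table of read counts per gene row for all libraries (55486 rows), with 32 columns outside the columns used here. HISAT2, edgeR, GRCm38 and mm10 are named in the submitters' processing notes. For the counting program, its strand setting and the annotation release, nothing is given in the sources used here. Row strands and exons were taken from GENCODE M21, whose coordinates match 98.95% of the rows. The deposited counts of a library sum to far less than the stated reads, and this depth limits the precision for rows of few counts.

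Columns were assigned to organs by name, spleen columns 1 to 8 and lymph node columns 1 to 8. The rows were tested with edgeR 4.0.16 in R 4.3.3 (filterByExpr on organ, TMM factors, robust glmQLFit and glmQLFTest, no covariate), with Benjamini-Hochberg adjustment over 2793 rows and a threshold of 0.05. CPM values are counts per 1000000 of the total of a library's tested rows, multiplied by its TMM factor. SE was derived from the test, as the absolute log2 fold change divided by the square root of the F statistic. Fits on simulated data were checked first. An opposite-strand overlap is at least 50 shared exonic bases. Named coding rows are the 15 largest called changes in each direction among rows of mean log2 CPM of at least 1, without an overlap and with no overlap of the organs' values, besides Qpctl, Qpct and members of each list. List counts come from a fit without a filter on low counts over 22954 rows. Members and lists were chosen with earlier results of these data known. Counting intervals are exact at 95%. Shares were compared in Python 3.11.15 with scipy 1.17.1. Promoter sequences are RefSeq's. Alternatives included DESeq2 1.42.0 and limma-voom (limma 3.58.1), other scalings and filters, all 48 libraries, and leaving out each library. Alternatives that swap the lymph node columns, leave out several columns at once, use overlap rows alone or block on column number were added after seeing the data. A few genes that the rules name are not reported here.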

Additional observations from a re-analysis of the deposited data

Results flagged for a closer look

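Of 138 groups of 8 values checked for a single value far from the rest, 22 values stood apart by Dixon's criterion (10 in spleens and 12 in lymph nodes), where chance flags about 1 in 20 groups. Total counts stood apart in spleen column 3 (626316) and lymph node column 2 (557811). Spleen column 8 had an overlap row share of 84.07%, above the other spleens, and low levels of Rpl19 (106.4 CPM), Cfl1 (96.69 CPM) and Igsf8 (14.5 CPM). Spleen column 6 was high for Cmc1 (94.34 CPM) and Cdc73 (55.5 CPM), spleen column 7 for Tmem179 (28.76 CPM) and Gm16559 (21.57 CPM), and spleen column 2 for Gm15883 (8.65 CPM).

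Among lymph nodes, column 1 had the highest ribosomal protein share (0.8558%). Column 7 was high for Tmem179 (1025 CPM), Rce1 (258.2 CPM) and Scd1 (1131 CPM). Column 6 was high for Slc40a1 (12.36 CPM), Apex2 (214.2 CPM) and Fcnaos (78.25 CPM), and column 4 for Hmox1 (46.13 CPM) and Rps12 (61.51 CPM). Column 8 was high for Pter (274.6 CPM) and column 5 for Gm15883 (601 CPM).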

How the results depend on the processing

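Against 1472 rows called and 816 called past 2-fold, DESeq2 called 4903 and 4173, the fit without a filter on low counts 5659 and 5065, and all 48 libraries in 1 fit 3492 and 2296. Rows without an opposite-strand overlap gave 473 and 311, rows with one 958 and 397, and a test against a 2-fold change called 374. Lymph node columns 9 to 20 gave 467 rows past 2-fold, and leaving out spleen columns 5, 6 and 8 gave 2243 and 1298. Leaving out each library in turn gave 1398 to 1813 called and 811 to 1091 past 2-fold. The number of rows tested also differed, at 2793 in the main fit, 13892 with DESeq2, 22954 without the filter and 5504 with all 48 libraries. It was 669 and 2102 in the fits of rows without and with an overlap. With lymph node columns 9 to 20 it was 3842, and without spleen columns 5, 6 and 8 it was 3446. The part of these numbers in the changed counts of calls was not tested. Other scalings, limma-voom, a minimum of 10 counts in 8 libraries, all 20 lymph node columns and leaving out lymph node columns 2 and 7 stayed within 1.5 times the called count.

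Among single rows 14 values changed sign with a call in at least 1 of the 2 fits. With lymph node columns 9 to 20 these were Cd55 (-0.20), Sparc (-0.59), Pecam1 (-0.745), Il6st (-0.94), C3 (-0.76), Pax5 (-0.025), Apoe (-0.50), Col4a1 (-1.07), Gm11175 (-0.082) and Tmem123 (-0.93). With all 20 they were Sparc (-0.092), Pecam1 (-0.34) and C3 (-0.34), and without spleen columns 5, 6 and 8 Gm47079 (-0.28). A further 98 values, of 24 rows, changed sign with no call in either fit, among them Cd163 with lymph node columns 9 to 20 (0.32) and Il6st (-0.002), Slc48a1 (-0.063), Gm10252 (-0.06) and Gm47079 (-0.097) without the filter. Of the other values of single rows, 4578 kept their call and direction, 116 gained a call and 203 lost it.

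With the column number as a replicate block, a fit added after seeing the data, 1427 rows were called and 807 past 2-fold. Of these calls 1381 were shared with the fit without the block, all in the same direction, and Rabep2 did not pass (-2.35, edgeR adjusted p = 0.288). Deviations from the organ means of same-numbered columns, over 2756 rows outside chromosomes X and Y, correlated from -0.0514 to 0.293, above 0.1 in 4 of 8 pairs, and 4 spleen and 3 lymph node columns correlated best with their own number. The sex-linked pattern was shared at 8 of 8 numbers, and these values do not settle whether the numbers mark mice. The low total counts limit rows of few reads: most members of the marker lists did not pass the filter, and their values rest on the fit without it.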
